A study of Mus musculus with 25 samples.

Results

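The genomic neighbourhood of Srsf7 was described here as 500 nt bins of both strands over 525 kb of mouse chromosome 17, chr17:80375001-80900000 in the mm9 build. The 30 minus-strand bins over Srsf7 itself, 15 kb in all, were left out, because that gene encodes the protein that was precipitated. This left 2070 bins, out of 1946163 bins and strands of the genome that held an event in any of the 25 libraries. The bins were chosen by position, with earlier results of these data known. The neighbourhood holds Galm, Gemin6 and Morn2 on the plus strand and Dhx57 on the minus strand. In RefSeq's GRCm38 annotation the genes follow each other in the order Atl2, Hnrnpll, Galm, Srsf7, Gemin6, Dhx57, Morn2, Arhgef33, Sos1, Cdkl4 and Map4k3. Bins were not assigned to single genes, since gene positions in the mm9 build were not used here.

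SRSF7 is a serine/arginine-rich splicing factor that binds RNA through an RNA recognition motif and a zinc knuckle. In iCLIP, ultraviolet light links the protein to RNA at the points of contact, the protein is precipitated, and reverse transcription stops at the linked nucleotide, so that each cDNA marks a contact and its strand. The signal at a place rises with binding and also with the amount of RNA made there. RNA levels and genomic copies were not measured in these libraries, so more RNA and more binding per RNA cannot be told apart, and whether the region with raised signal belongs to an introduced copy of the locus was not tested. Nor can fewer cells making an RNA be told apart from less of it per cell in libraries made from bulk cells. Of the neighbours, Galm encodes galactose mutarotase and Gemin6 a subunit of the SMN complex, which assembles spliceosomal particles. Dhx57 encodes a DExH-box helicase, Hnrnpll an RNA-binding splicing regulator, Atl2 a GTPase that shapes the endoplasmic reticulum, and Sos1 an exchange factor for Ras.

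All libraries came from P19 cells, a mouse embryonal carcinoma line. With an anti-EGFP antibody, UV-treated cells of genotype SRSF7mutZn-GFP gave 2 libraries (mutZn 3 and 4), those of genotype SRSF7D27aa-GFP 2 (D27aa 1 and 2) and those of genotype SRSF7-GFP OE 3 (WT 2, 3 and 4). WT 3 and WT 4 carry the same replicate number in the file headers and may be 1 biological replicate, so a WT group given with n = 3 may hold 2. With an anti-SRSF7 antibody, 6 further libraries came from SRSF7-GFP OE cells, namely GFP_OE 3 and 4, endo_OE 4 and 5 and RRM_OE 3 and 4, and a single one, endo_WT 1, came from cells labelled wild type. The labels give no more than these names for the changes in mutZn and D27aa, and they do not say how the tagged genes were put into the cells or whether a line is a single clone. Only the genotype SRSF7-GFP OE names overexpression. For short, all cells with a tagged SRSF7 are called overexpressing cells here, those of mutZn and D27aa included. Controls were 1 library without UV for each of mutZn, D27aa and WT, 1 without UV and 1 without antibody for GFP_OE, and 6 libraries of piCLIP, a variant run on fractions titled mono and poly, with 2 IP and 1 IgG library for each. The wild-type reference is thus a single library, and every difference from it lacks the spread of its own group.

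The libraries differed in size. The 14 UV-treated iCLIP libraries held between 17763 and 11782376 crosslink events, with 11782376 and 6436730 in mutZn, 376870 and 388768 in D27aa, 221746 to 3952779 in WT and 211496 in endo_WT 1. Levels are therefore given as events per 1000000 events of the library, written CPM, with the SD over libraries. The share of a library's events that lay in the neighbourhood was 0.182% to 0.183% in mutZn, 0.211% to 0.236% in D27aa and 0.345% to 0.415% in WT, against 0.0473% in endo_WT 1. Intervals cover counting error only.

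On the plus strand the event density had sharp ends that were the same in mutZn and WT. An end was placed where 1 kb inside held at least 20 events and at least 10 times the events of 1 kb outside, taking the outermost such place. In mutZn the left end lay at 80543501, with 42 events in the 1 kb inside and 1 in the 1 kb outside. In WT it lay at the same bin boundary, with 50 events inside and 0 outside. Both groups also shared the right end at 80692000, where mutZn had 276 events inside against 2 outside and WT had 221 against 0. In mutZn 3 alone the left end fell 1 bin further in, at 80544001, with 31 events against 2. In the 6 pooled anti-SRSF7 libraries of overexpressing cells the same rule placed the right end at 80628000, with 33 events against 2, although the 5 kb on either side of 80692000 held 44 events inside and 1 outside. The span between the ends, chr17:80543501-80692000, is 148500 nt long and is called the raised segment from here on. The 168500 nt to its left and the 208000 nt to its right within the neighbourhood are called the left and right flanks. The ends were set on the values of the overexpressing cells, so the contrast between segment and flanks is a description and has no test.

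At single nucleotides the plus-strand ends were as narrow as the number of events allowed. The first plus-strand event inside the left end lay at 80543540 in mutZn, 80546470 in D27aa and 80543904 in WT. The 27981 nt to the left of the WT position held no plus-strand event in any of the 3 WT libraries. The last event before the right end lay at 80691990 in mutZn, 80691670 in D27aa and 80691948 in WT, all inside the same 500 nt bin. Beyond it came an empty run of 13605 nt in D27aa and 1535 nt in WT. In mutZn, with the most events, the empty run was 29 nt long, and its 5 kb beyond the end held 11 events against 591 in the 5 kb inside.

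By the same rule, which uses the density of each group and not endo_WT 1, the minus strand had a right end 2500 nt further in. It lay at 80689500 in mutZn with 327 events in the 1 kb inside and 0 outside, in D27aa with 28 against 0, in WT with 338 against 3, and in the 6 pooled anti-SRSF7 libraries of overexpressing cells with 58 against 0. In 5 kb on either side of 80689500, 507 events lay inside and 0 outside in mutZn, 33 and 1 in D27aa, 456 and 4 in WT, and 1 and 0 in endo_WT 1. With libraries pooled, this minus-strand end was shared by all 3 proteins and by both antibodies. In D27aa 1 alone the rule placed the right end further in, at 80681000, with 25 events against 0. In mutZn 3, mutZn 4, WT 3 and WT 4 alone it stayed at 80689500. With 1 event in endo_WT 1, whether the density also falls at this end in wild-type cells could not be seen. Between this end and the plus-strand end lay a 2500 nt stretch whose signal was nearly all on the plus strand, with 590 plus and 0 minus events in mutZn, 29 and 1 in D27aa and 470 and 4 in WT.

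The left end on the minus strand differed between the proteins in what could be seen. In WT it lay at 80544001, within 500 nt of the plus-strand end, with 24 events in the 1 kb inside and 0 outside, and the first WT event stood at 80544066 after 24352 empty nt. Around the plus-strand left end at 80543501, the 5 kb inside held 13 minus-strand events in D27aa and the 5 kb outside 0, and the first D27aa event stood at 80544579, too few events for a placed end. In the 6 anti-SRSF7 libraries 11 events lay inside and 0 outside, with the first at 80544325. In mutZn only 7 events lay in the 5 kb inside and 1 outside, despite the largest libraries, and no end could be placed there.

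A second placement set the overexpressing libraries against endo_WT 1 bin by bin. For each group the segment was sought in which the group's share of the summed events was higher than outside, and all positions within 2 log-likelihood units of the best were kept. On the minus strand the innermost right end kept was 80688500 for mutZn and 80689500 for D27aa and WT, and 80689500 for GFP_OE and endo_OE and 80689000 for RRM_OE. The outermost right end kept lay between 80797000 and 80819500 in the 6 groups, in a space where endo_WT 1 held few events. The innermost left end kept was 80594501 for mutZn, 80545501 for D27aa and 80545001 for WT. It was 80585501 for GFP_OE, 80593001 for endo_OE and 80585501 for RRM_OE. The outermost left end kept was 80461501 for RRM_OE and 80490001 for the other 5 groups. For D27aa and WT the raised signal therefore reached at least to within 2 kb of the plus-strand left end. For mutZn it reached at least the last bins before Srsf7, and how much further was not settled. The best left ends ran from 80490001 to 80509001 in mutZn, to 80499501 in D27aa and to 80500501 in WT. On the plus strand endo_WT 1 had 11 events in the whole neighbourhood, so no edge against endo_WT 1 was relied on there. The gain from any segment was 2.24 log-likelihood units in mutZn, 6.87 in D27aa and 2.98 in WT. The left ends kept ran from 80625501 to 80638001 in D27aa and from 80610001 to 80629501 in RRM_OE (gain 3.71), well inside the plus-strand left end. In mutZn, WT, GFP_OE and endo_OE they reached the start of the neighbourhood.

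**Figure D1:**
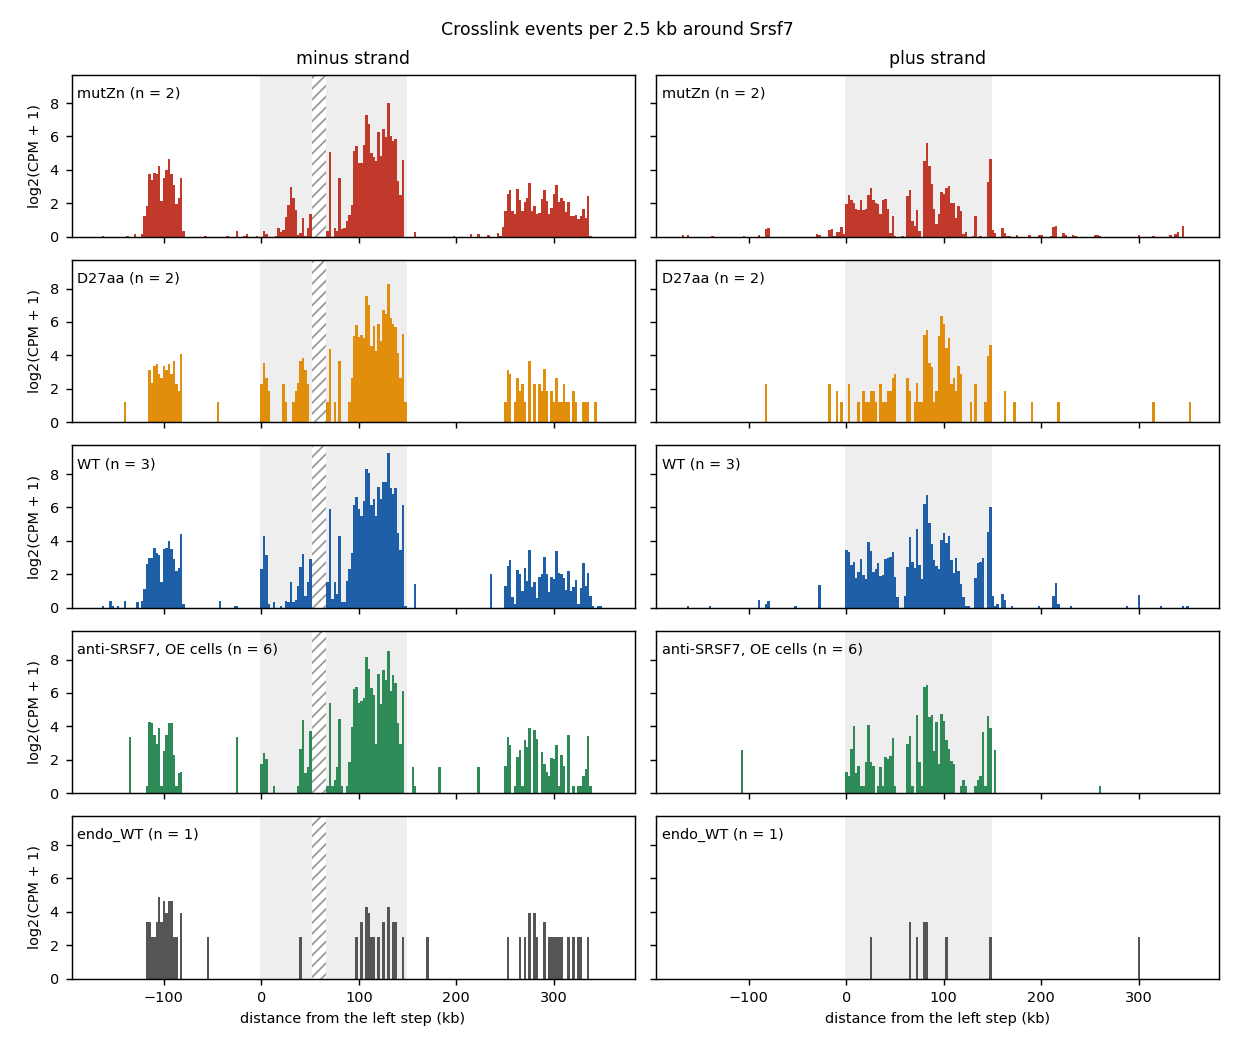
Level in CPM per 2500 nt on the plus strand and the minus strand across the 525 kb, on a log scale, for mutZn, D27aa, WT, the anti-SRSF7 libraries of overexpressing cells and endo_WT. The overexpressing groups stand above endo_WT between the ends of the raised segment, and the minus-strand events of the flanks appear in all groups at levels of the same order.

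Inside the raised segment the minus strand was more than 10-fold above endo_WT in every overexpressing group. The level was 1306.2 and 1299.1 CPM in mutZn 3 and 4, 1641 and 1452 CPM in D27aa 1 and 2, and 2695, 3109 and 3195 CPM in WT 2, 3 and 4. With the anti-SRSF7 antibody it was 2108 and 2200.1 CPM in GFP_OE, 2391 and 2298 CPM in endo_OE and 2029 and 2351 CPM in RRM_OE. In endo_WT 1 it was 118 CPM, from 25 events. All 13 libraries of overexpressing cells lay above it, and the 3 anti-EGFP groups did not overlap with each other. The ratio to endo_WT 1 was 11.01 in mutZn (95% interval from the counting error of endo_WT 1, 7.46 to 17.02), 13.1 in D27aa (8.86 to 20.2) and 25.4 in WT (17.2 to 39.2). It was 18.2 in GFP_OE, 19.8 in endo_OE and 18.5 in RRM_OE. Restricted to libraries with the same run number as endo_WT 1, the ratios were 18.6, 19.8 and 19.9. No mutZn, D27aa or WT library shared that run, and these also differ from endo_WT 1 in antibody.

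The plus strand of the segment was raised too, at a lower level. It averaged 243 ± 2.96 CPM in mutZn (n = 2), 461 ± 32.3 CPM in D27aa (n = 2) and 627 ± 70.9 CPM in WT (n = 3), with 479 ± 51.9 CPM in GFP_OE, 452 ± 4.59 CPM in endo_OE and 491 ± 102 CPM in RRM_OE (n = 2 each). endo_WT 1 had 47.3 CPM, from 10 events. The ratios to endo_WT 1 were 5.13 in mutZn (2.79 to 10.7), 9.73 in D27aa (5.29 to 20.3) and 13.2 in WT (7.202 to 27.6). As on the minus strand, mutZn was the lowest and WT the highest of the 3 proteins precipitated through the tag.

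The flanks did not share in this. The left flank on the minus strand, which holds a dense block of events between 80420001 and 80470000, had 160 ± 3.58 CPM in mutZn, 114 ± 22.8 CPM in D27aa and 133 ± 23.7 CPM in WT. It had 189 CPM in endo_WT 1, from 40 events, which was above all 3 group means. The right flank on the minus strand had 112 ± 1.01 CPM in mutZn, 90.3 ± 11.2 CPM in D27aa and 106 ± 10.96 CPM in WT, against 114 CPM in endo_WT 1 from 24 events. The plus strand of the flanks was nearly empty, with endo_WT 1 showing 0 events on the left and 1 on the right. The flanks thus give a level from the same stretch of chromosome that does not depend on the total of a library. For each minus-strand event in the flanks, the segment's minus strand held 4.79 ± 0.0636 events in mutZn, 7.62 ± 0.616 in D27aa and 12.6 ± 0.599 in WT, against 0.391 in endo_WT 1.

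**Figure D2:**
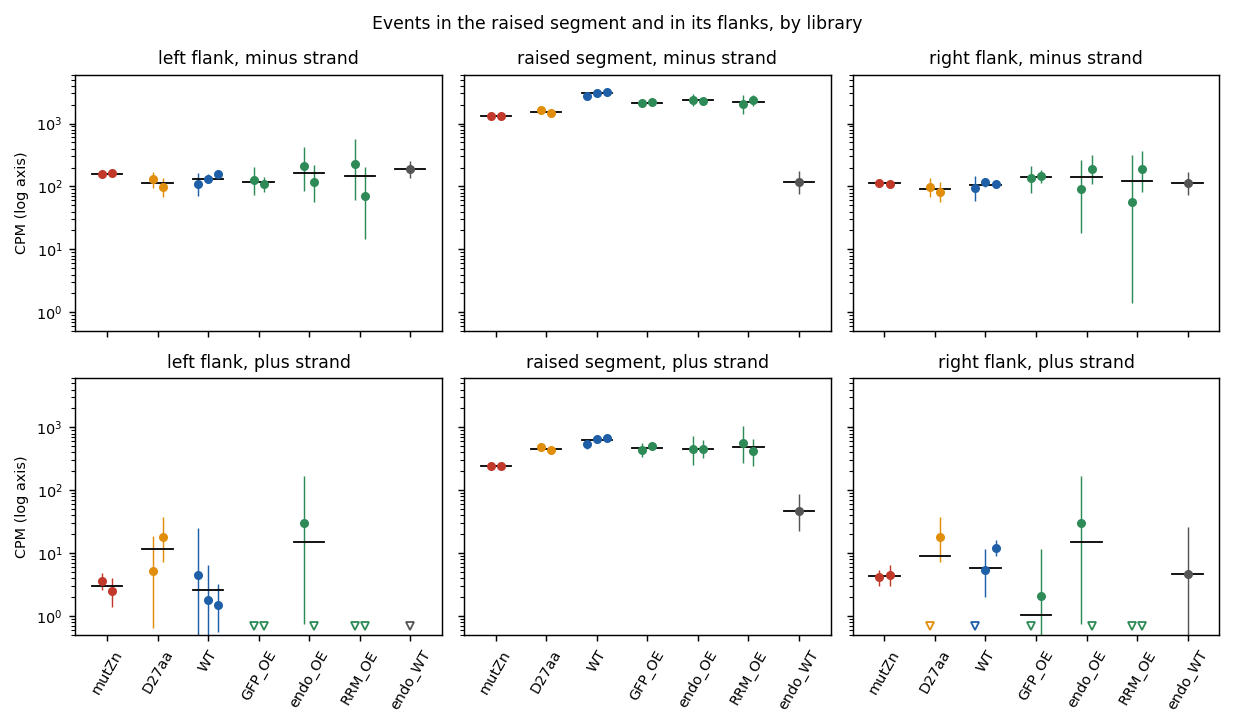
Level in CPM of the left flank, the raised segment and the right flank on each strand, one point per library with the group mean, on a log scale. In the raised segment on the minus strand the libraries of overexpressing cells lie between 1299.1 and 3195 CPM and endo_WT at 118 CPM, while in the flanks of the minus strand the group means lie between 90.3 and 189 CPM.

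Signal at the segment was also present without UV. On the minus strand the UV-treated libraries averaged 1303 ± 4.98 CPM in mutZn, 1547 ± 134 CPM in D27aa and 2999.7 ± 267 CPM in WT. The single library without UV had 1530.5 CPM in mutZn, 2807 CPM in D27aa and 1775 CPM in WT, from 102, 98 and 158 events. Only in WT did every UV-treated library lie above its control without UV. On the plus strand, set against the UV-treated averages of 243, 461 and 627 CPM, the controls had 375, 630.1 and 315 CPM in mutZn, D27aa and WT, the same pattern. The GFP_OE library without UV had 5 minus-strand and 0 plus-strand events there, and that without antibody had 4 and 2. Of the 127 positions of the neighbourhood in the D27aa library without UV, 71 (55.9%) were also positions in WT 4, against 51 (40.2%) when shifted by 1 nt and 49 (38.6%) by 2 nt. With D27aa 2 the D27aa control shared 3.94%, 4.72% and 3.94% of its positions at shifts of 0, 1 and 2 nt. D27aa 2 held 388768 events against 3952779 in WT 4, so its shares cannot be set beside those with WT 4. The shares with WT 4 were 36.2%, 30.5% and 34.8% at shifts of 0, 1 and 2 nt for the mutZn library without UV, and 38.7%, 34.8% and 31.9% for that of WT. That of WT shared 47.5%, 42.6% and 38.2% with mutZn 3, and that of mutZn shared 39.0%, 35.5% and 39.0% with mutZn 3. What part shared cDNA between libraries has in the levels without UV was not tested.

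Windows of 5000 nt were tested across the genome with limma-voom, first for mutZn and D27aa against WT, with 36173 windows and strands tested and p-values adjusted over all of them. Of the 207 windows of the neighbourhood, 50 passed the filter on low values. In mutZn against WT, 29.0% of all tested windows passed an adjusted p of 0.05, and 39 of the 50 windows of the neighbourhood did, 1 higher and 38 lower in mutZn (background 14.7% higher and 14.3% lower). The median log2 difference was -1.21 over the 50 and 0.00 over all tested windows. Within the raised segment, 17 of 17 tested minus-strand windows and 20 of 21 tested plus-strand windows were lower in mutZn. The filter fixed part of these counts, since a window could pass on the libraries where it was high. No mutZn library reached the filter's level of 9.10 CPM in 4 of the 17 minus-strand and 12 of the 21 plus-strand windows, and 1 and 5 of them were reached in WT alone. The 4 minus-strand windows from 80560001 to 80580000, where mutZn had more CPM than WT, did not pass the filter and were not tested. In the flanks 12 windows were tested, all on the minus strand, of which 1 was higher, 1 was lower and 10 did not pass. With limma's trend method on log2(CPM + 1) in place of voom, 1 window of the neighbourhood passed for mutZn.

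In D27aa against WT, 2.74% of all tested windows passed and 16 of the 50 windows of the neighbourhood did, 2 higher and 14 lower (background 2.24% higher and 0.506% lower). The median log2 difference was -0.95 over the 50 and -0.05 over all. In the raised segment 11 of 17 minus-strand windows were lower, and on the plus strand 2 of 21 were higher and 3 lower. None of the 12 flank windows passed. Both comparisons use the same 3 WT libraries and are not independent of each other. In mutZn against D27aa, 3.18% of all tested windows passed and 8 of the 50 did, all 8 lower in mutZn (background 2.49% lower and 0.686% higher) and all in the segment. With the trend method, 0 windows of the neighbourhood passed in either comparison, while voom put 25 of the 50 at an unadjusted p of 0.05 in D27aa against WT and 15 in mutZn against D27aa.

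**Figure D3:**
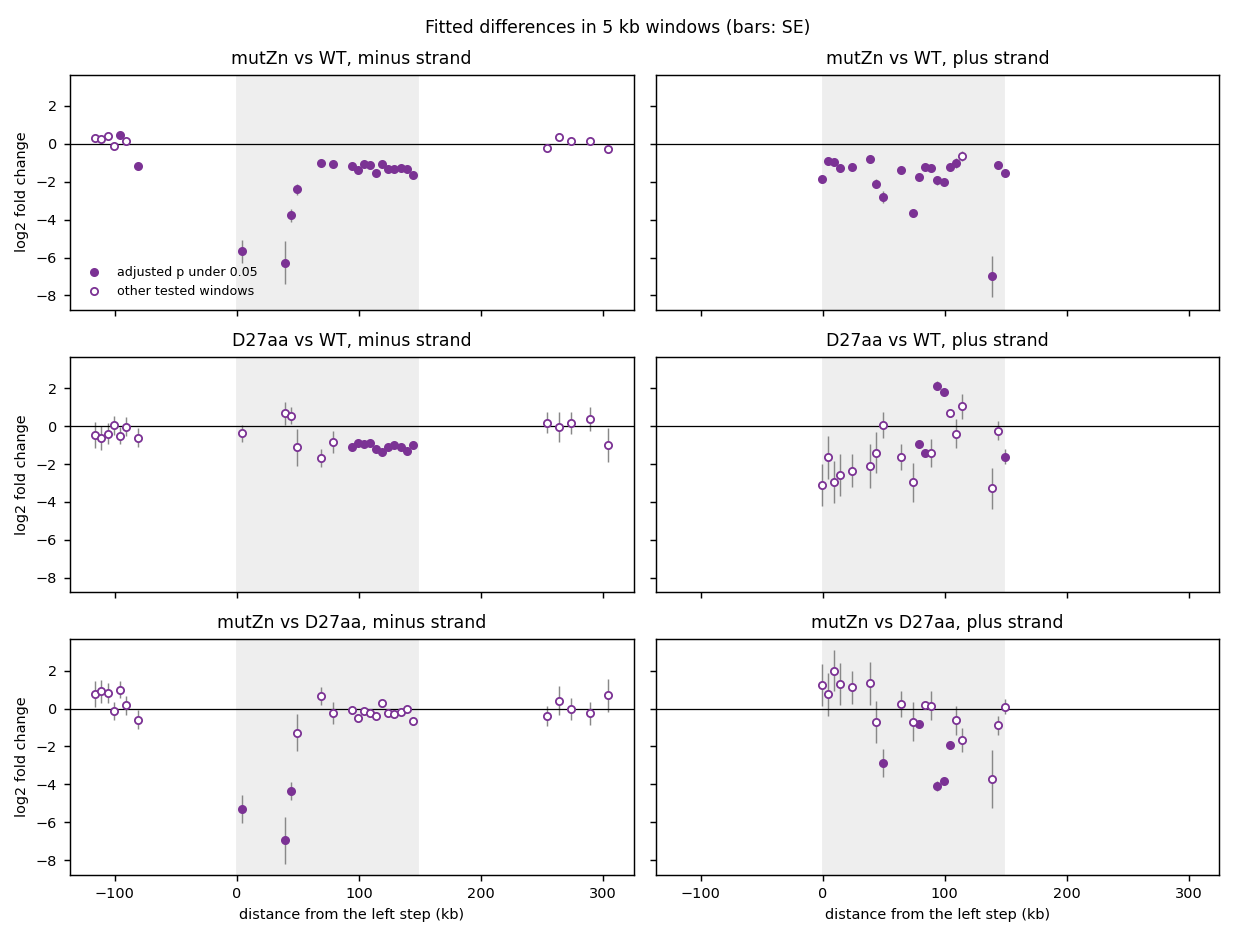
Log2 difference of each tested 5000 nt window along the neighbourhood, for mutZn against WT, D27aa against WT and mutZn against D27aa, by strand, with filled points for an adjusted p under 0.05 by limma-voom. Nearly all tested windows of the raised segment lie below 0 in mutZn against WT, whereas in D27aa against WT 2 plus-strand windows stand above 0.

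Most of the minus-strand signal came from 1 block, 80635001 to 80689500, at the right of the segment. It held 94.6% of the segment's minus-strand events in mutZn, 93.0% in D27aa and 94.6% in WT. The block had 24 events in endo_WT 1. All 11 windows that cover it were lower in mutZn than in WT, by log2 differences from -1.62 to -1.04, with adjusted p from 4.2e-15 to 7.07e-09 (limma-voom). All 11 were also lower in D27aa than in WT, by -1.35 to -0.87, with adjusted p from 3.63e-08 to 0.00593. Among the named ones, the D27aa call at 80635001 was lost without either D27aa library (log2 difference -1.31 and -0.89), at 80655001 without D27aa 2 (-0.89) and at 80675001 without WT 4 (-0.92). Between mutZn and D27aa none of the 11 passed, with differences from -0.64 to 0.31.

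The 2 bins of this block with the highest mean over the 3 proteins stood at 80674001 and 80650501. The bin 80674001 to 80674500 had 75.5 ± 4.72 CPM in mutZn, 111 ± 10.5 CPM in D27aa and 195 ± 9.89 CPM in WT, and 0 events in endo_WT 1. The bin 80650501 to 80651000 had 65.9 ± 7.05, 109 ± 34.6 and 151 ± 25.2 CPM in the same order, and 4 events in endo_WT 1. The first of these spread its events over 437 of its 500 nt, so it is a broad peak and not a single site. The second held the single strongest nucleotide of the 2, 80650764, with 135 events over the UV-treated anti-EGFP libraries. In the windows around them, 80670001 to 80675000 had 324 ± 10.9 CPM in mutZn, 402 ± 21.8 CPM in D27aa and 789 ± 55.5 CPM in WT. The log2 difference from WT was -1.31 ± 0.05 in mutZn (SE, adjusted p = 4.2e-15, limma-voom) and -1.003 ± 0.09 in D27aa (adjusted p = 3.63e-08).

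To the left of Srsf7 on the minus strand the proteins differed in where their events lay. The first 5500 nt of the segment, 80543501 to 80549000, held 4 and 3 events in mutZn 3 and 4, 7 and 8 in D27aa 1 and 2, and 9, 27 and 103 in WT 2, 3 and 4. In CPM this was 0.403 ± 0.0896 in mutZn, 19.6 ± 1.42 in D27aa and 30.4 ± 8.86 in WT, and 0 events in endo_WT 1. mutZn lay below every library of the other 2 proteins. The window 80545001 to 80550000 was lower in mutZn than in WT by a log2 difference of -5.68 ± 0.61 (adjusted p = 1.15e-07, limma-voom) and lower than in D27aa by -5.30 ± 0.75 (adjusted p = 2.52e-05). The second call was lost without mutZn 3 (-4.96, adjusted p = 0.0599). In this window no mutZn library reached the filter's level, and it entered the test through WT and D27aa. The direction was thus in part set by the filter, which the p-values do not allow for. From pooled counts, the level in WT over that in mutZn across the 5500 nt was 68.6, with a counting interval of 32.4 to 174. The interval leaves out the spread between libraries. The stretch was chosen after its values were seen, so this fold is a description.

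Next to it, 80560001 to 80579500 showed the reverse order. It held 205 and 116 events in mutZn 3 and 4, 2 and 4 in D27aa, and 0, 6 and 16 in WT, or 17.7 ± 0.441, 7.80 ± 3.53 and 3.17 ± 2.84 CPM. None of the 7 UV-treated anti-SRSF7 libraries, endo_WT 1 included, had an event there. Pooled, mutZn over WT was 4.22, with a counting interval of 2.74 to 6.83, but none of the 5000 nt windows there passed the filter, so none was tested. This stretch too was chosen after its values were seen. In the following 8000 nt, 80579501 to 80587500, the order turned again, with 10 and 13 events in mutZn (1.44 ± 0.829 CPM), 16 and 7 in D27aa (30.3 ± 17.3 CPM), and 0, 19 and 99 in WT (14.1 ± 12.8 CPM). The window 80580001 to 80585000 held 0 and 3 events in mutZn, 9 and 3 in D27aa and 0, 9 and 38 in WT. Its log2 difference was -6.28 ± 1.14 for mutZn against WT (adjusted p = 0.00016, limma-voom) and -6.96 ± 1.24 for mutZn against D27aa (adjusted p = 0.000633). Both calls were lost with run as a block (-4.09 and -4.40). This window also entered without a mutZn library at the filter's level, so its direction was in part set by the filter. WT 2 held 0 events in these last stretches, so the order of WT and D27aa there is not settled.

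**Figure D4:**
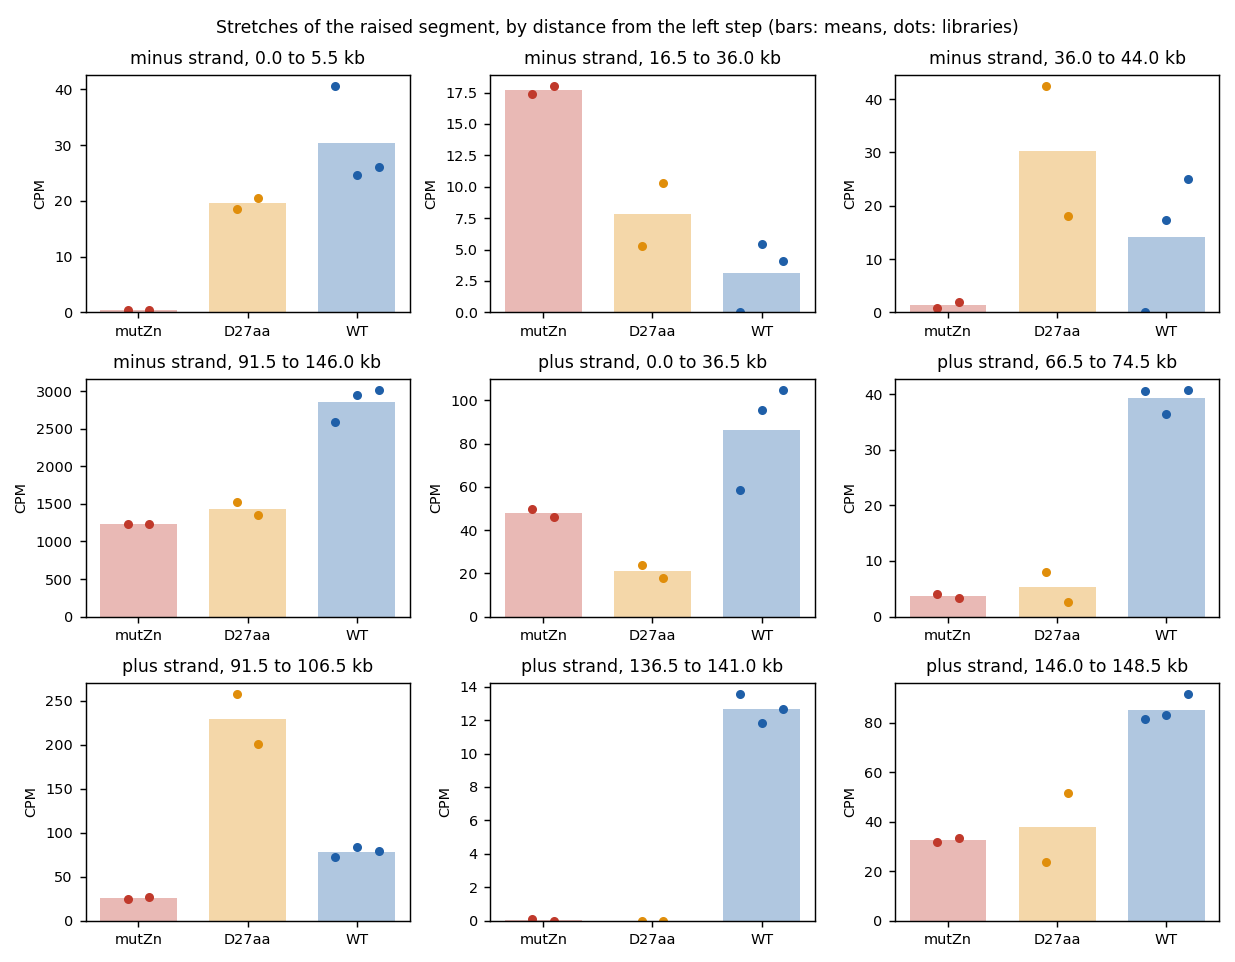
Level in CPM of selected stretches of the raised segment on each strand, with one point per library and the group mean, for mutZn, D27aa and WT. Among the 3 proteins precipitated through the tag, mutZn is lowest in the first minus-strand stretch, and D27aa is highest in the plus-strand stretch from 80635001 to 80650000.

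On the plus strand D27aa stood out in 1 place. The stretch 80635001 to 80650000 held 49.7% of D27aa's plus-strand events in the segment, against 10.6% in mutZn and 11.9% in WT. The window 80635001 to 80640000 had 14 events in each D27aa library and 2, 9 and 33 in WT, or 36.6 ± 0.804 CPM in D27aa against 8.53 ± 0.443 CPM in WT. The log2 difference was 2.15 ± 0.26 (SE). This window passed the filter through the D27aa libraries alone, so its difference is a description. The next window, to 80645000, had 60 and 47 events in D27aa and 6, 53 and 145 in WT, or 140 ± 27.1 against 37.4 ± 10.6 CPM, a difference of 1.82 ± 0.18 (adjusted p = 7.07e-08, limma-voom). Both D27aa libraries lay above every WT library in both windows. These were the 2 windows of the neighbourhood that passed as higher in D27aa. In the window after them, to 80650000, D27aa had 52.4 ± 12.2 CPM against 32.5 ± 4.58 CPM in WT, which did not pass (adjusted p = 0.0651).

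In the same windows mutZn was the lowest. It had 2.23 ± 0.148 CPM in the first, a log2 difference of -4.07 ± 0.26 from D27aa with the same limit, and 10.2 ± 1.89 CPM in the second, a difference of -3.83 ± 0.18 (adjusted p = 5.25e-14, limma-voom). The bin 80641001 to 80641500 was the strongest of D27aa among the named plus-strand bins, with 21 and 15 events in D27aa and 47.2 ± 12.1 CPM, against 1.66 ± 0.0682 CPM in mutZn and 6.04 ± 5.32 CPM in WT. Both D27aa libraries lay above every mutZn and WT library there.

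On the plus strand 3 other windows were lower in D27aa than in WT. The window 80625001 to 80630000, at the strongest plus-strand bins of mutZn and WT, had 65.4 ± 1.02 CPM in mutZn, 56.3 ± 10.5 CPM in D27aa and 140 ± 23.4 CPM in WT. D27aa was lower than WT by -1.40 ± 0.19 on the log2 scale (adjusted p = 1.56e-05, limma-voom) and mutZn by -1.20 ± 0.09 (adjusted p = 2.11e-10). The last window of the segment, from 80690001, was lower in D27aa by -1.62 ± 0.39 (adjusted p = 0.0185), a call lost without WT 4, either mutZn library or D27aa 1 (-1.61 to -1.01, adjusted p from 0.0767 to 0.228). The third window lower in D27aa was 80620001 to 80625000, at 37.9 ± 2.68 CPM against 76.2 ± 0.68 CPM in WT (log2 difference -0.96, adjusted p = 0.00531). It lies outside the rule for named windows and was picked after its values were seen.

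2 plus-strand stretches carried WT signal with little or none from mutZn and D27aa. The stretch 80680001 to 80684500 held 1 and 0 events in mutZn, 0 and 0 in D27aa and 3, 13 and 50 in WT, with WT at 12.7 ± 0.854 CPM. With the anti-SRSF7 antibody, the 6 libraries from overexpressing cells had 9 events there and endo_WT 1 had 0. From pooled counts WT was 228-fold above the single event of mutZn, with a counting interval of 39.5 to 9142. Against D27aa it was at least 3.19-fold higher, taking 3 counts over the 2 libraries as the floor. Both folds describe a stretch chosen after its values were seen. The window that holds it had a log2 difference of -7.00 ± 1.09 for mutZn against WT, a size that rests on 1 event, and it passed the filter through WT alone, so the difference is a description. The other stretch, 80610001 to 80618000 just right of the span of Srsf7, had 3.63 ± 0.514 CPM in mutZn, 5.27 ± 3.81 CPM in D27aa and 39.3 ± 2.47 CPM in WT. Its window 80615001 to 80620000 was lower in mutZn by -3.65 ± 0.21 (adjusted p = 2.85e-12, limma-voom). As no mutZn library reached the filter's level there, this direction was in part set by the filter. For D27aa, with 4 and 0 events, the difference of -2.96 ± 1.04 did not pass (adjusted p = 0.172).

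The remaining named windows of mutZn against WT lay beside Srsf7. On the minus strand 80585001 to 80590000 was lower by -3.78 ± 0.34 (adjusted p = 9.18e-09, limma-voom) and 80590001 to 80595000, which passed the filter through WT alone, differed by -2.39 ± 0.29. On the plus strand 80585001 to 80590000 was lower by -2.11 ± 0.24 (adjusted p = 2.93e-07) and 80590001 to 80595000 by -2.81 ± 0.34 (adjusted p = 6.68e-07). In the last of these D27aa had 11.8 ± 5.81 CPM, near the 11.7 ± 3.36 CPM of WT, and mutZn had 1.37 ± 1.06 CPM. In none of the windows beside Srsf7 named here did a mutZn library reach the filter's level. Their direction was thus in part set by the filter.

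In the flanks the only window higher in mutZn was minus-strand 80445001 to 80450000, at 38.5 ± 3.39 CPM against 26.3 ± 2.32 CPM in WT (log2 difference 0.49 ± 0.13, adjusted p = 0.0063, limma-voom). This call was lost without WT 3 (0.42, adjusted p = 0.145). The only lower one, 80460001 to 80465000, had 10.5 ± 0.601 CPM against 20.1 ± 6.18 CPM (-1.19, adjusted p = 3.12e-06) and was picked after its values were seen. It holds the strongest left-flank bin, 80461001 to 80461500, with 5.29 ± 0.446 CPM in mutZn, 13.1 ± 3.99 CPM in D27aa and 12.9 ± 7.27 CPM in WT.

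Set against endo_WT 1 window by window, few calls were possible, since 25 windows of the neighbourhood and 8871 of the genome passed the filter and the reference has no replicate. The lone library was taken to vary as the other groups do. The filter's level was higher in this fit, at 33.4 CPM, and no window of the segment reached it in endo_WT 1 (0 of 12 tested on the minus and 0 of 8 on the plus strand). A window high in endo_WT 1 alone could not pass either, so the direction of these calls was in large part set by the filter. Without it, 31 of the 43 windows called in mutZn were lower than in endo_WT 1. In endo_OE 0.113% of all tested windows passed and 3 of the 25 did, all higher. GFP_OE and RRM_OE had 2 of 25 each, all higher, with a background of 0.0451% for each. The median log2 difference over the 25 was 3.46 in endo_OE, 3.31 in GFP_OE and 3.58 in RRM_OE, against 0.09, -0.23 and 0.48 over all tested windows. With the anti-EGFP antibody, mutZn had 8 of 25 (background 9.59%, of which 1.17% higher and 8.42% lower), D27aa had 3 (0.609%, of which 0.147% and 0.462%) and WT had 12 (5.79%, of which 0.868% and 4.93%), and every one of these was higher and in the raised segment. None of the 5 left-flank windows tested passed in any of the 6 comparisons, all of which share endo_WT 1. With WT 3 and WT 4 summed as 1 library, RRM_OE had 1 call and mutZn 5.

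The windows called in every one of the 6 comparisons were the minus-strand windows that hold the bins at 80674001 and 80650501. At 80670001 to 80675000, the level was 598 ± 169 CPM in endo_OE (log2 difference 4.73 ± 0.63, adjusted p = 0.00103, limma-voom), 484 ± 63.5 CPM in GFP_OE (4.47 ± 0.62, adjusted p = 0.00159) and 327 ± 64.2 CPM in RRM_OE (4.07 ± 0.67, adjusted p = 0.0186), against 18.9 CPM from 4 events in endo_WT 1. With the anti-EGFP antibody it was higher by 3.93 in mutZn (adjusted p = 0.000307), 4.24 in D27aa (adjusted p = 0.00208) and 5.22 in WT (adjusted p = 5.72e-05). At 80650001 to 80655000 the differences were 3.67 in endo_OE, 3.77 in GFP_OE and 3.76 in RRM_OE, and 2.90 in mutZn, 3.15 in D27aa and 4.04 in WT, against 33.1 CPM from 7 events in endo_WT 1. The RRM_OE calls were the least firm, as leaving out any of 6 libraries ended that at 80670001 (adjusted p from 0.052 to 0.206) and leaving out RRM_OE 4 ended that at 80650001 (adjusted p = 0.0971). In endo_OE the minus-strand window from 80660001 also passed, at 191 ± 17.1 CPM against 1 event in endo_WT 1 (adjusted p = 0.0395), but leaving out any of 9 libraries ended the call (adjusted p from 0.0565 to 0.221). In D27aa the plus-strand window from 80640001 passed with 0 events in endo_WT 1 (adjusted p = 0.0403), where D27aa was at least 9.85-fold higher by the floor of 3 counts. Leaving out any of 6 libraries ended that call (adjusted p from 0.0603 to 0.159). With WT 3 and WT 4 summed as 1 library, the RRM_OE call at 80670001 (adjusted p = 0.0561), the endo_OE call at 80660001 (0.0686) and this D27aa call (0.0539) were lost.

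The events were also spread over a larger share of bins in the segment than in the flanks. Over all 25 libraries, events fell in 234 of the segment's 267 minus-strand bins and 260 of its 297 plus-strand bins. In the left flank they fell in 108 of 337 minus-strand and 41 of 337 plus-strand bins, and in the right flank in 197 of 416 and 53 of 416. In endo_WT 1 the shares of minus-strand bins with an event were close to each other, at 6.74% in the segment (18 of 267), 7.12% in the left flank (24 of 337) and 5.05% in the right flank (21 of 416). On its plus strand the segment had the larger share, at 3.37% (10 of 297). The left flank had 0 of 337 plus-strand bins with an event and the right flank 1 of 416 (0.240%).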

How the data were processed

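The deposited files hold crosslink events per nucleotide of mm9 in column 4, a signed whole number whose sign gives the strand. This score was made by the authors with the iCLIP method and Ensembl 59 annotation, per the file headers, and CASAVA 1.4 is named in the submitters' processing notes. As the headers do not call it a read count, it was treated as a score and tested with limma-voom, and no count model was used. The sources used here name no aligner and no removal of duplicates. Values were summed in 500 nt bins and 5000 nt windows and divided by the library total (CPM). Windows were tested where at least 2 libraries reached the CPM that 10 events give in a library of median size, with at least 15 events in all (limma 3.58.1, R 4.3.3), in a fit of the 7 anti-EGFP libraries and another of the 14 UV-treated libraries, with Benjamini-Hochberg adjustment over all windows of the genome. Tables and figures were made in Python 3.11.15.

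Named windows were at most 8 per direction and comparison with the largest log2 difference among those called, and named bins the 3 strongest per strand and part. The members and lists were chosen with earlier results of these data known, and the stretches and the rule for ends after seeing values. On simulated data of the anti-EGFP fit over the 36173 windows, with mutZn set against WT, 70 of 70 windows changed 8-fold, 53 of 63 changed 4-fold and 15 of 67 changed 2-fold were recovered, with 14 calls among 35973 unchanged windows. The labels speak of biological replicates without naming cultures, so p-values measure the spread between these libraries. In the headers WT 3 and WT 4 carry the same replicate number and run. Deviations of same-numbered mutZn and WT libraries correlated at -0.00184 over 58660 windows. As WT 3 and WT 4 may be 1 biological replicate, this cannot decide whether replicate numbers pair the groups. Run numbers 1 to 6, taken from the headers, were tried as a block. The IgG piCLIP libraries carry the anti-EGFP antibody in their labels and IgG in their titles. No sequence of the region is shown and marker genes of P19 cells were not examined, since no genome of this build was used here.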

Additional observations from a re-analysis of the deposited data

Results flagged for a closer look

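The piCLIP libraries entered no comparison, and 3 of their values stood above the IgG control. In the raised segment poly_IP 1 had 1819.5 CPM on the minus strand, from 42 events, and 519.9 CPM on the plus strand, from 12 events. poly_IP 2 had 436.7 CPM on the plus strand, from 8 events at 3 positions, and 218 CPM on the minus strand, from 4 events. The poly IgG library held 0 events on either strand, which allows up to 269 CPM at 3 counts of its 11177 events. With each position counted once, the plus strand had 243 CPM in poly_IP 2, under that limit, and 597 CPM in poly_IP 1, whose minus strand had 2008 CPM. The mono_IP libraries had 935 and 439 CPM on the minus strand and 1088 and 533 CPM on the plus strand, but the mono IgG library, with 1153 events in all, could not have shown a level under 2602 CPM. In mono_IP 1 and 2 the segment held 49 and 14 minus-strand events and 57 and 17 plus-strand events. In the UV-treated iCLIP libraries of overexpressing cells the minus strand was the higher one throughout. The difference between the strands' shares was not tested, and no segment or flank value of mutZn, D27aa or WT was examined for outliers, because these groups hold under 4 libraries.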

How the results depend on the processing

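No log2 difference of a named window and no log2 ratio of the segment to endo_WT 1 changed sign under any alternative. The direction of calls could change, as in mutZn against endo_WT 1, with 12 higher and 31 lower without the filter. Main results were counts of calls, ends and ratios. Of their alternative values, 242 stayed near the main value and 66 moved. For the 53 named windows 680 values stayed past the threshold and 133 fell short of it. The cause was not tested. For windows called in mutZn against WT (39), limma's trend method gave 1, windows of 25000 nt gave 16 of 20 tested and bins of 500 nt gave 94 of 99. The replicate block gave 14 for mutZn against WT and 2 for GFP_OE against endo_WT, and whether the numbers pair libraries was not settled. With WT 3 and WT 4 summed as 1 library, chosen after seeing the data, the calls were 46, 19 and 10 in mutZn against WT, D27aa against WT and mutZn against D27aa, and 1 in RRM_OE and 5 in mutZn against endo_WT 1. With run as a block the calls were 39, 18 and 6 in mutZn against WT, D27aa against WT and mutZn against D27aa. For D27aa against WT (16), the trend method gave 0 and 25000 nt windows 7. For mutZn against D27aa (8), no filter on low windows gave 22, the trend method 0 and 500 nt bins 14, with 4 to 11 on leaving out a library, the lowest without mutZn 3. Against endo_WT 1, endo_OE (3) had 1 without filter, 10 by trend and 0 in 500 nt bins, and GFP_OE (2) had 6 by trend and 0 in 500 nt bins. RRM_OE (2) had 0 without filter, 0 by a trimmed mean of log ratios, 12 by trend and 0 in 500 nt bins, with 0 to 3 on leaving out a library, and 0 without RRM_OE 4. With the anti-EGFP antibody, mutZn (8) had 43 without filter (31 of them lower), 2 by trend and 4 in 25000 nt windows, with 4 to 11 on leaving out a library. D27aa (3) had 1 without filter and 2 to 5 on leaving out a library, the highest without WT 2. WT (12) had 6 in 25000 nt windows and 22 in 500 nt bins. The innermost left end on the minus strand moved for mutZn to 80589501 with each position counted once, 80593501 with separate shares in the flanks and 80574501 with the Srsf7 bins kept. It moved for WT to 80546001 in WT 3 or WT 4 alone, and for GFP_OE to 80547001 with separate shares or in GFP_OE 3 alone and 80547501 with the Srsf7 bins. It moved for endo_OE to 80592001 with separate shares and 80594001 in endo_OE 4 alone, and for RRM_OE to 80594001 in RRM_OE 4 alone. The innermost right end moved to 80796000 in D27aa 2 alone, to 80688500 in GFP_OE 3 alone, to 80698500 for endo_OE with the Srsf7 bins or in endo_OE 5 alone, and to 80681000 for RRM_OE with separate shares or in RRM_OE 4 alone. The log2 ratio of the segment's minus strand to endo_WT 1, scaled to the flanks, was 3.62 in mutZn (3.46 by library total), 4.29 in D27aa (3.71), 5.01 in WT (4.66), 4.42 in GFP_OE (4.19) and 4.39 in RRM_OE (4.21). With each position counted once it was 2.98 in mutZn, 4.34 in WT, 4.04 in GFP_OE and 4.23 in endo_OE (4.31), and on the plus strand 2.23 in mutZn (2.36), 3.18 in D27aa (3.28) and 3.24 in endo_OE (3.25). The plus strand could not be scaled to the flanks, where endo_WT 1 held 1 event. Depth limits every value of endo_WT 1, with 100 events in the neighbourhood, and the left end of D27aa.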
